A study of Mus musculus with 10 samples.

Results

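The Sec14l genes encode lipid-binding proteins related to yeast Sec14, and 4 of them (Sec14l1, Sec14l2, Sec14l3 and Sec14l4) were followed in the mouse kidney at high altitude. The 4 genes were found by name among 55952 genes in the deposited table. They were selected on earlier FPKM results of the same comparison, in which Sec14l3 was far lower in hypoxia, so their altitude differences are given as a description with no test. Sec14l5, the remaining gene with this name in the table, is given beside them.

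Kidneys came from C57BL/6 mice, a common inbred strain, kept for 30 days either at 4200 m (hypoxia, 5 libraries) or at 400 m (control, 5 libraries). No genetic change is given for either group, and age and sex are not given in the labels used here. RNA of the bulk tissue was sequenced, and levels were deposited as FPKM, fragments scaled to gene length and library size. The libraries held 16561672 to 17845464 reads in genes, and the labels do not say that each library came from its own mouse, so every error below measures the spread between these libraries. Each altitude was also its own site of housing, and the effects of altitude and site cannot be told apart.

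Proteins of this family share a CRAL-TRIO domain, a pocket that takes up a single hydrophobic molecule such as a phospholipid, squalene or a form of vitamin E and can pass it between membranes and enzymes. Sec14l2 is known as supernatant protein factor and as tocopherol-associated protein, and it stimulates squalene epoxidase, a step of cholesterol synthesis. Sec14l3 and Sec14l4 are close relatives of Sec14l2. Sec14l3 was described in the rat as a secretory protein of the olfactory epithelium and takes part in Wnt and calcium signalling in zebrafish. Sec14l1 and Sec14l5 are longer proteins that carry a further PRELI domain, and human SEC14L1 binds the RNA sensor RIG-I and limits its signalling.

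Sec14l2, Sec14l3 and Sec14l4 lie side by side on chromosome 11 (GRCm38 coordinates), within 91.95 kb. Sec14l4 (ENSMUSG00000019368) spans 4031462 to 4048024 on the plus strand. Sec14l3 (ENSMUSG00000054986) follows on the same strand from 4064841 to 4077736, with 12 exons in its coding transcript. Sec14l2 (ENSMUSG00000003585) lies on the minus strand from 4097039 to 4123415. Mtfp1, which encodes a protein of mitochondrial fission, sits between Sec14l3 and Sec14l2. Sec14l1 (ENSMUSG00000020823) is on the same chromosome but 113.0 Mb away, from 117115168 to 117159268. Sec14l5 (ENSMUSG00000091712) is on chromosome 16, from 5147109 to 5187271.

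The 3 clustered genes are alike in coding sequence. Their first 54 coding bases are shown because they give the degree of likeness at a glance, with bases that differ from Sec14l3 in capitals (GENCODE vM21 transcripts, GRCm38, read in the direction of the gene).
Sec14l3, chr11:4064952-4065005, plus strand: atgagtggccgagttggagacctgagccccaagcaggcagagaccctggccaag
Sec14l2, chr11:4118625-4118678, minus strand: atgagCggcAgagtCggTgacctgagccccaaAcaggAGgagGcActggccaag
Sec14l4, chr11:4031846-4031899, plus strand: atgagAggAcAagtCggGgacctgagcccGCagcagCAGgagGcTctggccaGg
Sec14l2 differed from Sec14l3 at 9 of these bases and Sec14l4 at 13. Over the whole coding sequence Sec14l3 was 76.1% identical to Sec14l2 and 74.9% identical to Sec14l4, with coding lengths of 1203 bases for Sec14l3 and 1209 bases for each of the others. Identity of Sec14l3 to Sec14l1, whose coding length is 2157 bases, was 60.8%. Of 2922 different stretches of 50 bases in the Sec14l3 transcripts, 0 occurred in a transcript of any other gene on either strand, and the same held for the 3638 stretches of Sec14l2. Sec14l1 shared 65 of its 7204 stretches with other genes, 0.902%, and no stretch of 100 bases was shared by any of the 5 genes.

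The sequence before the RefSeq start also differed between the neighbours. The 250 bases before the RefSeq start (GRCm38.p6) are given for Sec14l3, which differed between the groups, and for Sec14l2, whose groups overlapped, with matches to 6 motifs in capitals.
Sec14l3, chr11:4064603-4064852, plus strand: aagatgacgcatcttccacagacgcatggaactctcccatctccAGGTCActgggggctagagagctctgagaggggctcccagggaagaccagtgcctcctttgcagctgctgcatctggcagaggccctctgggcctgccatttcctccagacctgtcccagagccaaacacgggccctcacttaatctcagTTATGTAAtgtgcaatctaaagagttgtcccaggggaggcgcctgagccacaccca
Sec14l2, chr11:4118730-4118979, minus strand: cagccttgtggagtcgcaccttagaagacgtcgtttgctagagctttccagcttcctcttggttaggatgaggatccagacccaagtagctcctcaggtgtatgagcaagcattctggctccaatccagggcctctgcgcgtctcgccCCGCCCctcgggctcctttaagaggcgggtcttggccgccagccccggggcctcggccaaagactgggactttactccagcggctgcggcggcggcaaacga
Both strands were searched for ACGTG (the core of HIF sites), CACGTG (the E-box, which contains it), AGGTCA (a nuclear receptor half-site), AGAACA (a steroid receptor half-site), TTATGTAA (the D-box) and GGGCGG (the GC box). The RefSeq starts are not the gene starts given above. The Sec14l3 window ends at 4064852, past the gene start of 4064841. The Sec14l2 window lies inside the gene span of 4097039 to 4123415 and overlaps its coding transcript in GENCODE, which reaches 4118831. The Sec14l3 window held 1 AGGTCA, starting 206 bases before the RefSeq start, and 1 TTATGTAA, starting 56 bases before it. The Sec14l2 window held 1 GC box, read on the opposite strand. Of 32851 promoter windows of the same length, 14.0% held AGGTCA, 0.819% held TTATGTAA and 32.7% held GGGCGG. Neither window held the HIF core, the E-box or the steroid receptor half-site, which were present in 16.6%, 6.02% and 16.1% of all windows. CpG pairs numbered 4 in the Sec14l3 window and 17 in that of Sec14l2, against a median of 6 over all windows. Of the 5 genes, 4 matched this promoter table, and Sec14l4 did not. These matches describe letters in a window and were not tested as binding sites.

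Hypoxia replicates 4 and 5 stood apart from the other 3 hypoxia libraries. Hypoxia replicate 4 held adrenal cortex markers at a summed 1044.65 FPKM, against at most 12.03 FPKM in any other library, and hypoxia replicate 5 held B cell markers at 336.6 FPKM, against at most 2.21 FPKM. Main counts, medians and differences are therefore also given without them. Hypoxia replicate 4 also held adipocyte markers at 614.0 FPKM, against at most 161.8 FPKM in any other library. The 6 pancreatic acinar markers summed to 48.7 FPKM in hypoxia replicate 5, within the control range of 32.4 to 49.6 FPKM. Among them Ctrb1, singled out after its values were seen, was at 15.4 FPKM there, against at most 0.0680 FPKM in any other library. Prss2, Pnlip, Cpa1 and Cel were also highest there, at 6.53, 4.52, 2.79 and 1.75 FPKM. In any other library these genes were at most at 0.176 FPKM. Only Cela1 went the other way, lowest there at 17.7 FPKM, and it was at 32.4 to 49.6 FPKM in controls. Hypoxia replicate 2 held hepatocyte markers at 84.3 FPKM, against at most 30.6 FPKM in any other library, with Alb, a liver secretory gene, at 45.1 FPKM against at most 5.48 FPKM. The labels' protocol names the retina as the tissue removed, whereas the samples are labelled kidney. The 6 retina markers summed to 0.122 to 0.428 FPKM in hypoxia and 0.301 to 0.656 FPKM in controls, with Crx and Rcvrn at 0 in all libraries, while the 12 proximal tubule markers summed to 13549 to 27428 FPKM in hypoxia and 28079 to 34354 FPKM in controls. Over all genes, 1748 of 15264 tested genes passed a limma adjusted p of 0.05, which is 11.5%, with 3.66% higher and 7.79% lower in hypoxia.

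Sec14l3 was low in every hypoxia library. It was at 0.451, 1.19, 0.691, 0.486 and 0.374 FPKM in hypoxia replicates 1 to 5, against 9.42, 7.31, 10.97, 8.76 and 7.11 FPKM in control replicates 1 to 5. The groups did not overlap, and the lowest control library was 5.99 times the highest hypoxia library. The mean was 0.638 ± 0.328 FPKM in hypoxia and 8.71 ± 1.59 FPKM in controls (SD, n = 5 each), so hypoxia kidneys held 7.32% of the control level, a 13.7-fold difference. These values rested on 19 to 60 reads per hypoxia library and 329 to 513 reads per control library. In bulk tissue, fewer cells that express Sec14l3 and less Sec14l3 RNA per cell cannot be told apart.

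Sec14l3 had a log2 fold change of -3.04 (SE 0.186) on log2(FPKM + 0.5), a scale on which differences of weakly expressed genes come out too small. This was rank 8 from the lowest among 15264 tested genes. Without hypoxia replicates 4 and 5 it was -2.88 (SE 0.196), with a mean of 0.776 ± 0.375 FPKM in the remaining 3 hypoxia libraries. Relative to its mean, Sec14l3 varied more in hypoxia than in controls, with a coefficient of variation of 51.5% against 18.3%, and hypoxia replicate 2, the library with the most hepatocyte marker RNA, was the highest of the hypoxia libraries. Without hypoxia replicate 2 the log2 fold change was -3.20 (SE 0.144). The part of the hepatocyte signal in the value of that library was not tested.

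Sec14l2, on the other side of Mtfp1, was a gene of low level in both groups. It was at 0.488, 0.707, 0.466, 0.305 and 2.07 FPKM in hypoxia replicates 1 to 5, against 0.801, 0.608, 0.577, 0.706 and 0.309 FPKM in control replicates 1 to 5. Of the hypoxia values, 4 lay within the range of the controls or just under it, and that of hypoxia replicate 5, the library rich in B cell markers, lay above every control. The mean was 0.807 ± 0.718 FPKM in hypoxia and 0.600 ± 0.185 FPKM in controls (SD, n = 5 each). The log2 fold change was 0.13 (SE 0.299), and it turned to -0.052 (SE 0.187) without hypoxia replicates 4 and 5 and to -0.15 (SE 0.180) without hypoxia replicate 5 alone. The part of the B cell and pancreatic signals in the value of hypoxia replicate 5 was not tested. These values rested on 19 to 132 reads per hypoxia library and 18 to 47 per control library.

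Sec14l4, upstream of Sec14l3, was close to the limit of detection. It rested on 0, 10, 0, 5 and 1 reads in hypoxia replicates 1 to 5, against 9, 3, 3, 13 and 4 reads in control replicates 1 to 5. More than 3 reads, the count taken here as the floor, were present in 2 of 5 hypoxia libraries and 3 of 5 control libraries. Its highest level was 0.158 FPKM in hypoxia and 0.205 FPKM in controls, where 3 reads correspond to 0.0472 to 0.0524 FPKM. The groups overlapped, the gene was below the filter of a mean of 0.5 FPKM over the 10 libraries, and it was not tested. The difference of the group means on log2(FPKM + 0.5) was -0.14, with and without hypoxia replicates 4 and 5, and -0.21 without hypoxia replicate 2, in which the gene was highest among hypoxia libraries. These floors cover counting error only.

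Sec14l1, the most abundant member, overlapped between the groups. It was at 12.1, 12.9, 13.3, 12.1 and 12.1 FPKM in hypoxia replicates 1 to 5, against 13.3, 13.5, 9.99, 11.6 and 10.95 FPKM in control replicates 1 to 5. The 5 hypoxia values all lay inside the range of the controls. The mean was 12.5 ± 0.566 FPKM in hypoxia and 11.9 ± 1.51 FPKM in controls (SD, n = 5 each). Its log2 fold change was 0.080 (SE 0.0860), and 0.11 (SE 0.101) without hypoxia replicates 4 and 5. Sec14l5 rested on 0 to 12 reads per hypoxia library and 0 to 7 reads per control library and was not tested.

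**Figure D1:**
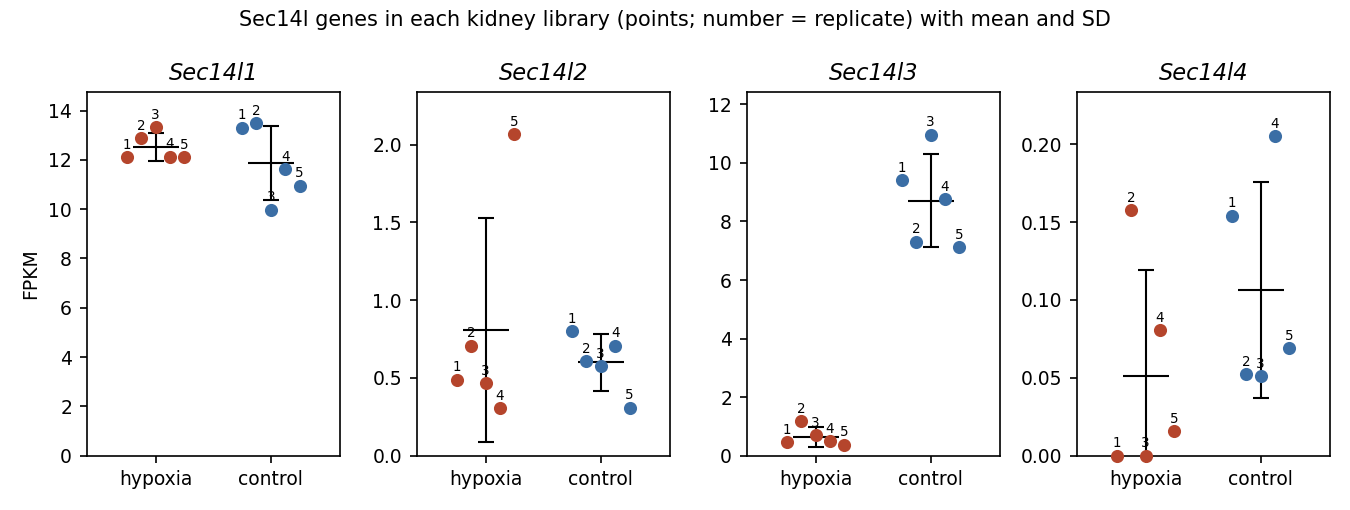
FPKM of Sec14l1, Sec14l2, Sec14l3 and Sec14l4 in each library, hypoxia on the left and control on the right of each panel, with the replicate number over each point and the mean and SD as black bars; the vertical axes start at 0 and differ in range. The 5 hypoxia values of Sec14l3 lie at 0.374 to 1.19 FPKM, below all controls at 7.11 to 10.97 FPKM, while the groups overlap for Sec14l1, Sec14l2 and Sec14l4.

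Of the 4 members, 3 were tested and 1 passed the gene test, beside 11.5% of all tested genes, and 1 had groups that did not overlap with the lower values in hypoxia, beside 8.54% of all tested genes. Both counts are Sec14l3, and since the members were chosen with this comparison known they are given as a description. Without hypoxia replicates 4 and 5, 1 member passed with a lower level and 0 with a higher one, beside 7.75% and 4.53% of 14724 tested genes and 12.3% in either direction.

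The distance between Sec14l3 and the other members differed between the groups. FPKM is per length of gene, so the members can be ranked within a library. In hypoxia kidneys Sec14l1 stood first in mean level, and Sec14l2 and Sec14l3 did not differ beyond their spread, with ranges of 0.305 to 2.07 FPKM for Sec14l2 and 0.374 to 1.19 FPKM for Sec14l3. Sec14l3 was above Sec14l2 in 3 of 5 hypoxia libraries, and the mean of Sec14l2 was the higher one only with hypoxia replicate 5 included. Over hypoxia replicates 1 to 3 the means were 0.776 FPKM for Sec14l3 and 0.554 FPKM for Sec14l2. In control kidneys Sec14l1 also stood first, followed by Sec14l3, Sec14l2 and Sec14l4, and control ranges of Sec14l1 (9.99 to 13.5 FPKM) and Sec14l3 (7.11 to 10.97 FPKM) overlapped. Sec14l3 exceeded Sec14l2 by 11.8 to 23.01 times in the 5 control libraries. Sec14l4 was below both in all 10 libraries. Of the summed FPKM of the 5 genes, Sec14l3 made up 2.55 to 7.95% in hypoxia and 34.04 to 50.7% in controls, with 3.46 to 7.95% in hypoxia replicates 1 to 3. The sum itself was 14.0 ± 0.931 FPKM in hypoxia and 21.3 ± 1.89 FPKM in controls (SD, n = 5 each).

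Genes around the cluster differed less than Sec14l3 did. A window reaching 250 kb to either side of the cluster held 29 other genes, 28 of them with a name, of which 9 were listed at 0 in all libraries and 14 passed the filter on low values. Of these 14, 1 was lower and 0 were higher in hypoxia (limma adjusted p under 0.05, background 11.5%), with a median log2 fold change of -0.27 and values from -0.85 to 0.15, against a median of 0.012 over all tested genes. Without hypoxia replicates 4 and 5 the median was -0.095. The lower gene was Osbp2, which encodes an oxysterol-binding protein, at 2.63 ± 0.802 FPKM in hypoxia and 5.02 ± 0.800 FPKM in controls (SD, n = 5 each). The fitted difference was -0.85 in log2 units (SE 0.186; adjusted p = 0.0179 by limma). Its call was lost without control replicate 2, at an adjusted p of 0.0502.

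Mtfp1, the gene between Sec14l3 and Sec14l2, was singled out for its position after its values were seen. It was at 11.7, 11.9, 12.4, 11.1 and 6.57 FPKM in hypoxia replicates 1 to 5, against 13.6, 14.1, 12.2, 11.6 and 11.5 FPKM in control replicates 1 to 5. Its groups overlapped, and the difference in log2 units was -0.25 (SE 0.155; adjusted p = 0.309 by limma). The nearest coding genes outside the cluster also overlapped between groups. Gal3st1, which encodes a sulfotransferase that makes sulfatide, differed by -0.26 in log2 units (SE 0.176; adjusted p = 0.350 by limma). Rnf215, a gene of the RING finger family, differed by -0.12 (SE 0.0732, limma adjusted p = 0.286).

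**Figure D2:**
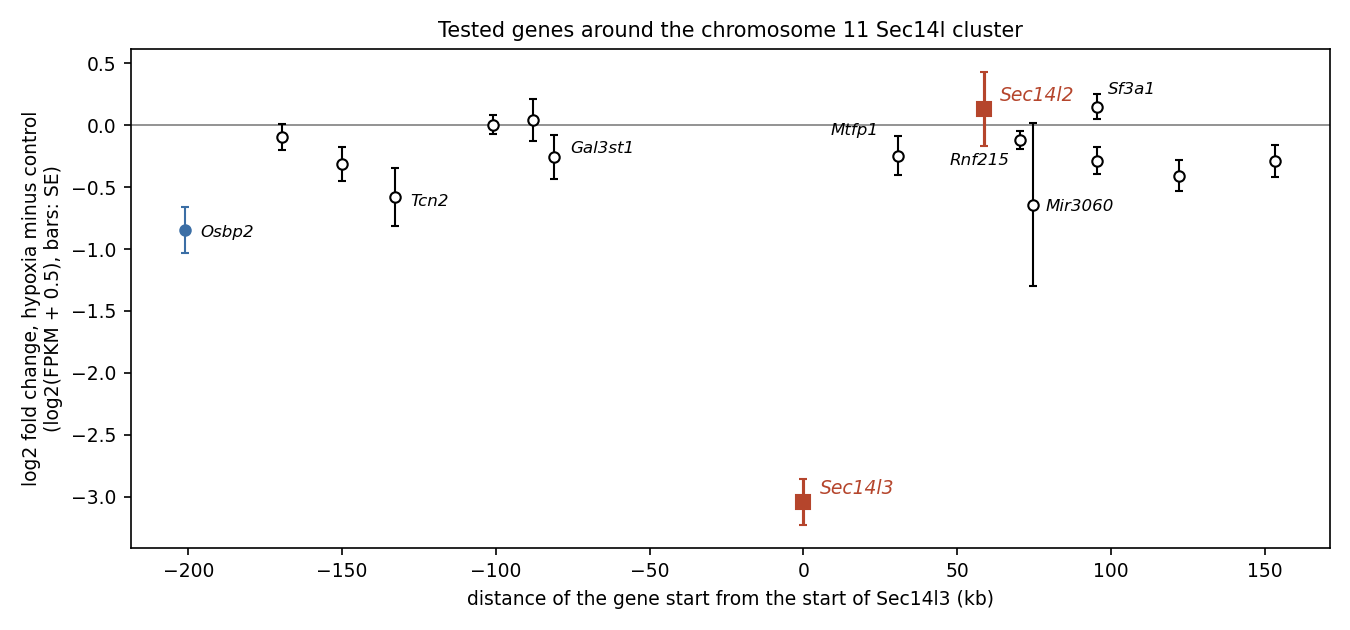
Log2 fold change (hypoxia minus control, on log2(FPKM + 0.5), bars are SE) of tested genes in the window, against the distance in kb of each gene's start from the start of Sec14l3; red squares are Sec14l3 and Sec14l2, the filled blue circle is Osbp2, the neighbour past the threshold, and open circles did not pass. Sec14l3 lies at -3.04, while the 14 neighbours lie between -0.85 and 0.15.

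The genes whose pattern over the 10 libraries was closest to that of Sec14l3 were Cyp7b1, Akr1c18 and Slco1a1. Likeness was the root mean square difference in log2(FPKM + 0.5) after the mean of the 5 controls was subtracted from each gene, among 9950 protein-coding genes that averaged 2 FPKM or more. It was 0.316 for Cyp7b1, which encodes an oxysterol hydroxylase, 0.401 for Akr1c18, a steroid-reducing aldo-keto reductase, and 0.637 for Slco1a1, an organic anion transporter. Since they were picked for this likeness, their altitude differences are also only described.

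Cyp7b1 was at 13.5, 18.8, 15.5, 12.0 and 9.35 FPKM in hypoxia replicates 1 to 5, against 83.6, 113.6, 111.3, 104.3 and 63.4 FPKM in control replicates 1 to 5. Akr1c18 was at 3.50, 5.47, 3.29, 1.82 and 1.4999 FPKM in hypoxia replicates 1 to 5, against 23.7, 22.9, 20.7, 34.2 and 15.0 FPKM in control replicates 1 to 5. All values of both genes were lower in hypoxia than in any control. Among the controls, Sec14l3 was highest in replicate 3, Cyp7b1 in replicate 2 and Akr1c18 in replicate 4. Without hypoxia replicates 4 and 5 the log2 fold changes were -2.52 for Cyp7b1 and -2.36 for Akr1c18. Cyp7b1 lies on chromosome 3 and Akr1c18 on chromosome 13, so neither is a neighbour of Sec14l3.

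**Figure D3:**
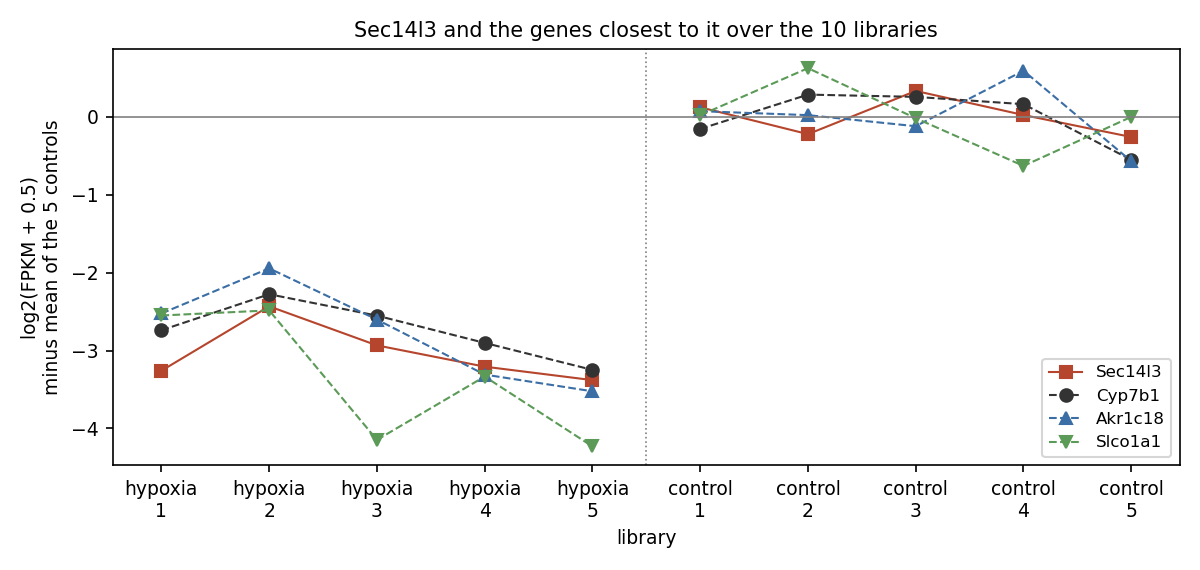
Level of Sec14l3 and of the 3 genes closest to it (log2(FPKM + 0.5) minus the mean of the 5 controls) in each library, hypoxia replicates 1 to 5 on the left and control replicates 1 to 5 on the right of the dotted line; lines join points of a group only to guide the eye. The root mean square difference from Sec14l3, by which the genes were picked, was 0.316 for Cyp7b1, 0.401 for Akr1c18 and 0.637 for Slco1a1.

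Cyp7b1 is also 1 of 7 markers of the late proximal tubule, and 5 of these 7 were lower in hypoxia and 0 higher (limma adjusted p under 0.05, background 11.5%). The 5 genes were Cyp7b1, Slc22a19, Acy3, Atp11a and Slc5a1, and the call of Slc5a1 was lost in 6 of the 10 fits that left out 1 library, with a limma adjusted p of up to 0.0878. Cyp7b1 had been picked for its likeness to Sec14l3, so its place in this count is only a description. Slc22a19, Acy3, Atp11a and Slc5a1 also passed without hypoxia replicates 4 and 5. Their limma adjusted p ran from 0.00183 for Acy3 to 0.0341 for Atp11a. The 7 markers summed to 711.0 to 1258 FPKM in hypoxia and 1702 to 2191 FPKM in controls, and 0 of the 7 were at 0 in all libraries. Acy3 contributed most to the difference of these sums, with means of 323.9 FPKM in hypoxia and 1052 FPKM in controls. A sum without Acy3 was not formed. Slc7a13 did not pass, with means of 406.6 and 459.3 FPKM in hypoxia and controls (limma adjusted p = 0.537). Slc5a8 did not pass either, with means of 64.0 and 84.9 FPKM (limma adjusted p = 0.106). Of the 12 markers of the whole proximal tubule, 1 was lower, Kap, an androgen-regulated kidney gene named to complete the count, at a limma adjusted p of 0.0498 that was lost in 8 of 10 fits without 1 library and without hypoxia replicates 4 and 5 (adjusted p = 0.129). Without Kap, a sum formed after the values were seen, the other 11 reached 2596 to 5310 FPKM in hypoxia and 4787 to 6265 FPKM in controls, and the groups overlapped. The part of the late tubule markers in the Sec14l3 difference was not tested.

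Sec14l1 and Sec14l2 had other companions. Closest to Sec14l1 were Elp5, Cwc15 and Nudt16l1, with root mean square differences of 0.070, 0.076 and 0.079. Closest to Sec14l2 were Zdhhc18, Twf2 and Dnajc9, at 0.157, 0.161 and 0.166, and all 3 were highest in hypoxia replicate 5, as Sec14l2 was.

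Wider relatives of the family were mostly below the threshold. Of 21 other genes with a CRAL-TRIO domain or its close variant, 13 were tested, of which 0 were higher and 1 lower in hypoxia (limma adjusted p under 0.05, background 11.5%), with a median log2 fold change of 0.14. Without hypoxia replicates 4 and 5, 1 was higher (Ttpa, a vitamin E transfer protein named to complete the count) and 1 lower, with a median of 0.054. The 1 lower gene was Arhgap1, which encodes a GTPase-activating protein, at 17.3 ± 0.614 FPKM in hypoxia and 20.05 ± 0.631 FPKM in controls (SD, n = 5 each). The fitted difference was -0.21 in log2 units (SE 0.0531; adjusted p = 0.0316 by limma). This call was lost in 7 of the 10 fits that left out 1 library, with an adjusted p of up to 0.0788, and under both other scalings of the libraries.

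Genes of squalene and cholesterol synthesis, the pathway that Sec14l2 is known to stimulate, were lower in part. Of 18 tested, 4 were lower and 0 higher (limma adjusted p under 0.05, background 11.5%), with a median log2 fold change of -0.19, and -0.11 with 4 lower without hypoxia replicates 4 and 5. Idi1, the isomerase of isopentenyl diphosphate, was at 11.9 ± 3.99 FPKM in hypoxia and 28.3 ± 2.79 FPKM in controls (SD, n = 5 each). For Idi1 the fitted difference was -1.28 in log2 units (SE 0.206; adjusted p = 0.00526 by limma). Mvd, mevalonate diphosphate decarboxylase, was at 15.3 ± 4.60 FPKM in hypoxia and 31.05 ± 2.88 FPKM in controls, and its log2 fold change was -1.05 (SE 0.194; adjusted p = 0.00902 by limma).

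Cyp51, the demethylase of lanosterol, was at 37.2 ± 11.8 FPKM in hypoxia and 83.4 ± 11.5 FPKM in controls (SD, n = 5 each). For Cyp51 the fitted difference was -1.20 in log2 units (SE 0.197; adjusted p = 0.00579 by limma). The differences were -1.22 for Idi1, -0.85 for Mvd and -0.99 for Cyp51 without hypoxia replicates 4 and 5, all past the threshold. Sqle, the squalene epoxidase on which Sec14l2 is known to act, was singled out after its values were seen and did not pass the test, with 15.6 ± 3.96 FPKM in hypoxia and 13.8 ± 1.17 FPKM in controls (log2 fold change 0.14, SE 0.154, limma adjusted p = 0.553). Fdps, a farnesyl diphosphate synthase gene singled out after its values were seen, was near 0 in both groups, at 0.0830 and 0.0872 FPKM in hypoxia and control means, and was not tested. Whether reads of Fdps were split among near-identical copies was not tested.

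Vitamin E handling, the other function known for these proteins, held calls in both directions. Ttpa and Ttpal stand in this list and among the CRAL-TRIO relatives. Of 10 tested genes, 1 was higher and 2 were lower (limma adjusted p under 0.05, background 11.5%), with a median log2 fold change of 0.17, and -0.030 without hypoxia replicates 4 and 5. Lpl, the lipase that frees fatty acids and vitamin E from lipoproteins, was at 55.8 ± 12.8 FPKM in hypoxia and 133.1 ± 23.6 FPKM in controls (SD, n = 5 each). For Lpl the fitted difference was -1.26 in log2 units (SE 0.186; adjusted p = 0.00354 by limma). Cd36, a lipid uptake receptor, was at 87.02 ± 15.4 FPKM in hypoxia and 154.2 ± 17.9 FPKM in controls, and its log2 fold change was -0.83 (SE 0.139; adjusted p = 0.00619 by limma). Lpl differed by -1.15 and Cd36 by -0.92 without hypoxia replicates 4 and 5, both past the threshold. Abca1, a lipid exporter, was at 7.36 ± 2.74 FPKM in hypoxia and 3.91 ± 0.604 FPKM in controls. For Abca1 the fitted difference was 0.77 in log2 units (SE 0.221; adjusted p = 0.0481 by limma), and the call was lost in 8 of 10 fits without 1 library and without hypoxia replicates 4 and 5 (adjusted p = 0.157).

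Among genes of phosphatidylinositol transfer and the PI 4-kinases, which Sec14 proteins serve in yeast, 2 of 10 tested were lower and 0 higher (limma adjusted p under 0.05, background 11.5%, median log2 fold change -0.0030). Both were kinases. Pi4ka was at 13.8 ± 1.57 FPKM in hypoxia and 23.1 ± 2.41 FPKM in controls (SD, n = 5 each). For Pi4ka the fitted difference was -0.72 in log2 units (SE 0.0941; adjusted p = 0.00198 by limma), and Pi4k2a differed by -0.51 (SE 0.0887, limma adjusted p = 0.00695). Pi4ka differed by -0.66 and Pi4k2a by -0.51 without hypoxia replicates 4 and 5, both past the threshold, and the median was -0.066. Pitpnm1, named to complete the count of listed genes, was at 0 in all libraries. Of 11 tested genes of RIG-I signalling, to which human SEC14L1 is tied, 0 passed with limma (adjusted p under 0.05, background 11.5%). With limma voom on the recovered reads 0 passed as well. An unadjusted limma p under 0.05 was found for 5 of the 11. That count was 4 of 13 for CRAL-TRIO relatives, 8 of 18 for sterol synthesis and 5 of 10 for vitamin E handling. It was 3 of 10 for phosphatidylinositol transfer and 6 of 14 for the neighbours. The share over all tested genes is not given here, so these unadjusted counts set no list apart. For RIG-I signalling the median log2 fold change was 0.0038, and -0.061 without hypoxia replicates 4 and 5. Irf3, named to complete a count, passed without hypoxia replicates 4 and 5 (limma adjusted p = 0.0346). Mavs and Trim25, the most abundant of them, had log2 fold changes of -0.13 (SE 0.0959, limma adjusted p = 0.390) and -0.14 (SE 0.0852, limma adjusted p = 0.283).

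**Figure D4:**
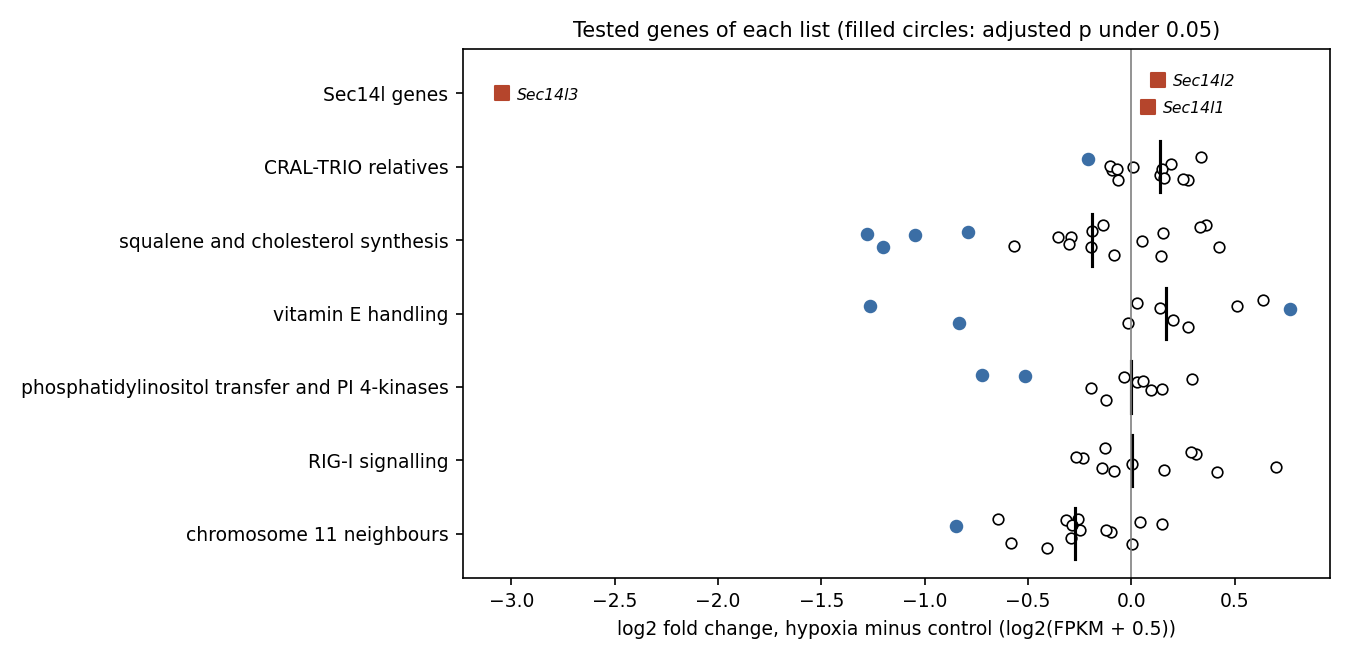
Log2 fold change (hypoxia minus control, log2(FPKM + 0.5)) of tested Sec14l genes (red squares, top row) and of tested genes of 6 lists; filled circles passed a limma adjusted p of 0.05, open circles did not, and black lines are list medians, from -0.27 for the chromosome 11 neighbours to 0.17 for vitamin E handling. Sec14l3 lies at -3.04, and the lowest listed gene, Idi1, at -1.28.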

How the data were processed

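Kidney RNA sequencing libraries were compared between hypoxia (5) and control (5), grouped by the treatment label. The authors deposited FPKM values for 55952 genes, with gene lengths in bases, an other unit used here to recover reads. HISAT2 2.0.5 and the build hg38 are listed per the submitters' processing notes. How reads were counted, on which strand and with which annotation is not given in the sources used here. Gene IDs are those of the mouse, and of 55141 found in GENCODE vM21 (GRCm38) 99.4% had identical coordinates. Whole reads were recovered from FPKM and length for 100% of the values checked (tolerance 0.05 of a read). Values of 0 and the highest read counts were left out of this check.

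limma 3.58.1 (R 4.3.3, trend and robust, two-sided) was fitted to log2(FPKM + 0.5) of the 15264 genes whose mean reached 0.5 FPKM, with Benjamini-Hochberg adjustment over all of them and a threshold of 0.05. Coding sequences were aligned with Biopython 1.88, and figures were drawn with matplotlib 3.10.9.

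The members, gene lists and motifs were chosen with earlier results of these data known. Named genes were up to 3 of each list with the smallest p past the threshold, or the 2 most abundant where none passed, the nearest coding gene on each side of the cluster, and the 3 genes most like each tested member. Any further gene, other than a cell type marker or Ttpal, is marked where it appears as singled out later or as completing a count. Alternatives covered pseudocount, filter, scaling, error model, a replicate block, limma voom on recovered reads and the omission of libraries. Of the genes counted in the sterol synthesis list, 1 is not reported here by name.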

Additional observations from a re-analysis of the deposited data

Results flagged for a closer look

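In a group of 5 libraries, a value was singled out when its gap to the nearest other value exceeded 0.71 of the range of the group, which chance gives in about 1 of 20 groups. Of 56 groups (28 genes in hypoxia and in controls), 6 held such a value. Hypoxia replicate 5 stood above the other hypoxia libraries for Sec14l2 at 2.07 FPKM (next highest 0.707), Sec14l5 at 0.115 FPKM (next highest 0.0102), Dnajc9 at 16.0 FPKM (next highest 7.18), Twf2 at 11.4 FPKM (next highest 4.49) and Zdhhc18 at 10.3 FPKM (next highest 4.67). Dnajc9, Twf2 and Zdhhc18 had been picked as the genes most like Sec14l2. Control replicate 4 stood above the other controls for Abca1, at 4.95 FPKM (next highest 3.81).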

How the results depend on the processing

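Sec14l3 was lower in hypoxia in all 20 alternative fits. Its log2 fold change was -3.66 with a pseudocount of 0.1, -2.57 with 1 and -3.78 with limma voom on recovered reads, and -3.20 to -2.96 with 1 library left out. That of the untested Sec14l4 was -0.50 with a pseudocount of 0.1 and -0.074 with 1, against -0.14. The count of all genes called was 966 with no filter on low values and 824 to 2724 with 1 library left out, against 1748. It fell under the main count divided by 1.5 without control replicates 1, 2, 3 and 5 (824, 864, 947 and 1016) and without hypoxia replicate 4 (1053), and was 2724 without hypoxia replicate 5. Scaling that ignored the 100 most abundant genes gave 864 higher and 845 lower calls, against 559 and 1189, and the median of all genes was 0.067 against 0.012. By median-of-ratios scaling 722 were higher and 1009 lower. Among CRAL-TRIO relatives 0 passed with no filter, either rescaling, eBayes without trend and robust, or limma voom, and 2 passed without hypoxia replicates 4 and 5 (Arhgap1 and Ttpa). The range was 0 to 1 with 1 library left out. Of the chromosome 11 neighbours 2 passed with a minimum mean of 2 FPKM (Osbp2 and Tbc1d10a, the second named to complete the count), and 0 to 2 with 1 library left out. In RIG-I signalling 1 gene (Irf3) passed without hypoxia replicates 4 and 5, and 0 to 1 with 1 library left out. Same-numbered libraries did not deviate together (correlations -0.077 to 0.086). These values show no shared deviation, but they cannot settle whether the samples were paired. With the replicate number as a block, 999 genes passed, with 0 of the CRAL-TRIO relatives and 0 of the chromosome 11 neighbours. Under a minimum mean of 2 FPKM, Sec14l2 and Sec14l4 were not tested. Read counts were lowest for Sec14l4 and Sec14l5.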
